A study of Homo sapiens with 32 samples.

Results

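Losing ERH was set directly against losing the site where DGCR8 contacts ERH: 4 wild-type clones of 293T cells under ERH shRNAs were compared with 4 clones that lack the contact site and received control shRNAs. All miRNA rows of the table were examined, and the 580 of 1513 that held enough counts were tested. The comparison used 16 of the 32 libraries. 293T is a readily transfected line of human embryonic kidney origin that expresses the large T antigen of SV40.

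DGCR8 binds RNA and, with the nuclease DROSHA, forms the Microprocessor, the complex that cuts miRNA hairpins out of primary transcripts in the nucleus. ERH is a small, highly conserved nuclear protein that binds the N-terminal part of DGCR8. Some hairpins are poor Microprocessor substrates on their own and are cut well only when a good hairpin lies beside them on the same transcript. The classic examples are mir-15a beside mir-16 and mir-451a beside mir-144.

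The knockdown group, called wild type shERH here, consisted of DGCR8 wild-type clones 52, 55, 57 and 67 transiently transfected with vectors for shERH 1 or shERH 2. The deletion group, called BSdel control, consisted of clones 30, 34, 42 and 43, in which prime editing had removed residues 103 to 126 of DGCR8 (24 residues), transfected with control shRNA 1 or 2, both non-targeting. All cells were selected with puromycin, sorted on a fluorescent marker of the vector and lysed directly. The same wild-type clones under control shRNAs gave the starting level, and the BSdel clones under ERH shRNAs are given beside it. Each line was 1 clone, no clone occurs in both compared groups, and the groups differ in genotype and in vector. The labels name the clone and the shRNA of each library. Differences between clones and between groups can be told apart only through the spread among the 4 clones of a group. P-values of comparisons between different clones measure that spread. For the knockdown against the same clones' controls, with the clone as a block, they measure the spread that remains within clones. Neither the knockdown nor the deletion was checked against its target, since messenger RNA of ERH and the edited DNA were not analysed here.

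Counts of both shRNA libraries of a clone were summed, and the clone was the replicate. Levels are in CPM (counts scaled to a common library size over miRNA rows, adjusted by the trimmed mean of M values). The 16 libraries held between 1318923 and 6222790 miRNA counts, and the 8 sums between 3560747 and 8687609. The 6 markers listed for 293T together held between 135469 and 204388 CPM in the 8 sums. The 13 markers listed for other cell types together held between 6418 and 17559 CPM, most of it mir-9 and mir-126, while mir-206 or mir-145 was at 0 in 3 sums. In bulk samples, fewer cells of a type and less RNA per cell cannot be told apart.

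The mature sequences of the miRNAs on which the comparison turns are shown first, from RefSeq (GRCh38.p14), with the seed (bases 2 to 8, which pair with targets) in capitals. The first set shares 1 seed, so that its members can address the same targets although they come from different hairpins.
miR-15a-5p: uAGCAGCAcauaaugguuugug
miR-15b-5p: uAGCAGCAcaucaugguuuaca
miR-16-5p: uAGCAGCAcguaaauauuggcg
miR-195-5p: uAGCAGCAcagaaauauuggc
miR-497-5p: cAGCAGCAcacugugguuugu
miR-424-5p: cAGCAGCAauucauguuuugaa
The related miR-503-5p, made next to miR-424, has another last seed base.
miR-503-5p: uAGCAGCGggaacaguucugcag

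The second set holds pairs made from 1 primary transcript or sharing a seed, in which only 1 member had a small unadjusted p-value. Those members, mir-212 and mir-192, were chosen after their values were seen, and neither passed after adjustment in the edgeR test of the sums. miR-212-3p and miR-132-3p share transcript and seed. miR-192-5p shares its seed with miR-215-5p and a primary transcript with miR-194-5p.
miR-212-3p: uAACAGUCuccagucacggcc
miR-132-3p: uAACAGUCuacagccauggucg
miR-192-5p: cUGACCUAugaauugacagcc
miR-215-5p: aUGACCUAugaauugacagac
miR-194-5p: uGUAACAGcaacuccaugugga
The third set holds further miRNAs with small unadjusted p-values, among them the near-identical miR-320 copies.
miR-589-5p: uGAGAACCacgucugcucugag
miR-374b-5p: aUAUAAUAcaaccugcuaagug
miR-187-3p: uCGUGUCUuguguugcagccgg
miR-320b: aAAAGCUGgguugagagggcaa
miR-320c: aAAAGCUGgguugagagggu
miR-320d: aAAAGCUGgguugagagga

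One miRNA, mir-15a, separated the 2 states. In wild type shERH it stood at 955, 954, 1133 and 1059 CPM in clones 52, 55, 57 and 67. In BSdel control it stood at 3241, 2300.5, 2576 and 3099.9 CPM in clones 30, 34, 42 and 43. The groups did not overlap, and the highest knockdown clone lay far below the lowest deletion clone. mir-15a was lower in wild type shERH by a log2 fold change of -1.42 ± 0.21 (SE, 4 against 4 clones; 95% interval -1.88 to -0.97; adjusted p = 0.00909, edgeR quasi-likelihood test), a 2.68-fold difference. It was the only 1 of 580 miRNAs past an adjusted p of 0.05, which is 0.172% of those tested, and 0 miRNAs were higher. At an unadjusted p under 0.05 there were 69 miRNAs (11.9%), and DESeq2 called 16 of the 523 to which it gave an adjusted p (3.06%).

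The other arms place this difference. Wild-type clones under control shRNAs held mir-15a at 3953, 3929, 2812 and 2068 CPM (clones 52, 55, 57 and 67), which overlaps BSdel control. Against the same clones' controls, ERH knockdown lowered mir-15a by -1.53 ± 0.21 on the log2 scale (SE; adjusted p = 0.000143, edgeR with the clone as a block). For the deletion under control shRNAs the log2 fold change was -0.19 ± 0.25 (SE, 4 against 4 clones; adjusted p = 0.609, edgeR), with a 95% interval of -0.72 to 0.35. BSdel clones under ERH shRNAs held 851, 518, 985 and 696 CPM, below every BSdel control clone. These comparisons share samples with each other and with the direct comparison, so their values are given side by side only.

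The low mir-15a level was seen with either ERH vector. With shERH 1, wild-type clones held between 913 and 1199 CPM against 2776 to 4063 CPM in BSdel clones with control shRNA 1. With shERH 2 they held between 760.5 and 1270.1 CPM, against 1788 to 3398 CPM with control shRNA 2. Both pairs were without overlap. The log2 fold change was -1.65 from the first vectors alone (adjusted p = 0.000919, edgeR) and -1.32 from the second alone, where the call was lost (adjusted p = 0.130). The call was also lost with spike-in counts as library sizes (-1.29, adjusted p = 0.448) and without clone 55 (-1.40, adjusted p = 0.0677).

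**Figure D1:**
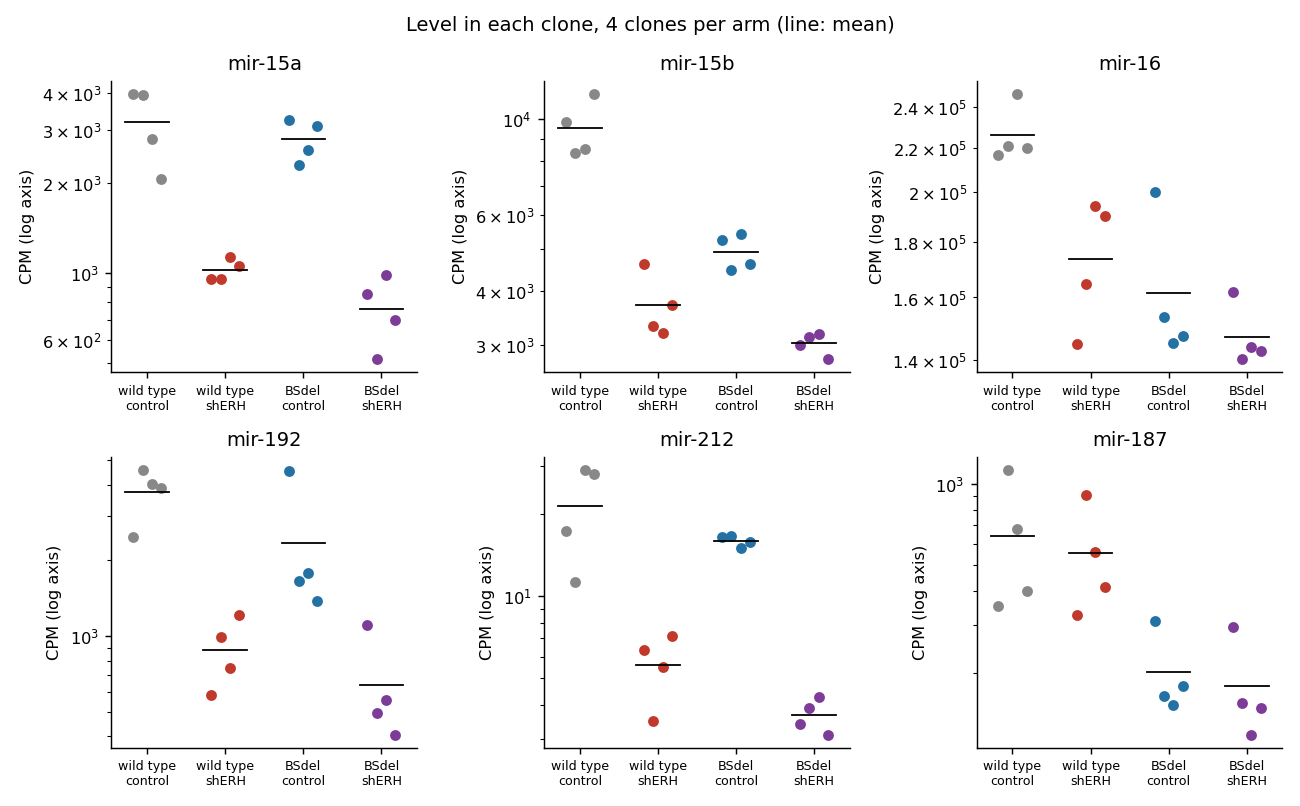
CPM (log axis) of 6 miRNAs in each clone, with 4 clones in each of 4 arms and a line at the mean. mir-15a was low in both shERH arms and high in both control arms, while mir-16 in wild type shERH overlapped BSdel control.

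MIR15A lies at chromosome 13, 50049119 to 50049201, minus strand (GRCh38, GENCODE release 29), within the non-coding gene DLEU2, where it overlaps an exon of at least 1 annotated transcript. MIR16-1 lies 57 bases further along the same strand, at 50048973 to 50049061, in an intron of DLEU2. Both hairpins are shown because they are cut from 1 transcript, mir-15a beside its helper. The mature 5p arm is in capitals.
MIR15A: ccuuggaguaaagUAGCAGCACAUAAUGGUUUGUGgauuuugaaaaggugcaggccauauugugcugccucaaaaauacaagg
MIR16-1: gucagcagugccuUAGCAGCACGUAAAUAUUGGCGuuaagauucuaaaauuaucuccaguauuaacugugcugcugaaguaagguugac

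The helper mir-16 itself did not separate the states. Its row sums MIR16-1 and MIR16-2, the latter beside MIR15B in an intron of SMC4 on chromosome 3, so the loci cannot be read apart. It stood at 145027, 164513, 194449 and 190185 CPM in wild type shERH and at 200235, 153486, 145124 and 147561 CPM in BSdel control, with clone 30 the highest of all 8. The log2 fold change was 0.14 with a 95% interval of -0.23 to 0.51 (adjusted p = 0.796, edgeR).

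The ratio of mir-15a to mir-16 needs no scaling between libraries. On the log2 scale it was -7.25, -7.43, -7.42 and -7.49 in wild type shERH and -5.95, -6.06, -5.82 and -5.57 in BSdel control. The groups were widely apart, with means of -7.40 ± 0.10 and -5.85 ± 0.21 (SD, n = 4), a mean difference of -1.55. The two-sided exact permutation test gave 0.0286, the smallest p that 4 against 4 clones allow (adjusted p = 0.0714 over 10 ratios). Wild-type clones under control shRNAs had -6.19 ± 0.47 (SD, n = 4).

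mir-15b, the paralogue beside MIR16-2, was less far apart. It stood at 4607, 3320.4, 3197 and 3695 CPM in wild type shERH and at 5233, 4461, 5398 and 4612 CPM in BSdel control, so that the groups overlapped at clones 52 and 34. Its log2 fold change was -0.38 ± 0.18 (SE, 4 against 4 clones; 95% interval -0.76 to 0.0046; adjusted p = 0.426, edgeR). From the starting level of 9539 ± 1416 CPM (SD, n = 4 clones), mir-15b fell both on knockdown (-1.31, adjusted p = 4.78e-05) and with the deletion (-0.94, adjusted p = 0.00796). The deletion call was lost with spike-in library sizes, with which 0 miRNAs were called lower. Relative to mir-16, mir-15b differed by -0.53 as a log2 ratio (exact permutation test, p = 0.114; adjusted p = 0.163).

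The remaining miRNAs with this seed showed no call, nor did mir-503, which has another last seed base. The log2 fold changes were 0.11 for mir-195, -0.025 for mir-497 and -0.28 for mir-424, with adjusted p-values from 0.713 upward, and that of mir-503 was 0.46 (adjusted p = 0.532, edgeR). The ratio of mir-497 to mir-195, neighbours on chromosome 17, differed by -0.12 (exact permutation test, p = 0.171; adjusted p = 0.214).

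In the second classic helper pair the deletion clones were widely spread. mir-451a, which is matured by AGO2 rather than DICER1 after the Microprocessor cut, stood at 5.60, 8.30, 3.41 and 5.59 CPM in wild type shERH and at 8.21, 27.9, 16.1 and 2.66 CPM in BSdel control. The groups overlapped, because clone 43 held the lowest level of all. On the log2 scale mir-451a differed by -1.19 ± 0.55 (SE, 4 against 4 clones; adjusted p = 0.426, edgeR). In wild-type clones it fell on knockdown (-1.18, adjusted p = 0.0158), and the value for the deletion was -0.029 (adjusted p = 0.977). For its helper mir-144, which held 6.49 CPM in BSdel control and 5.54 CPM in wild type shERH on average, it was -0.18 (adjusted p = 0.891). Of the 3 listed helper-dependent hairpins 1 passed, mir-15a, beside 0.172% of all miRNAs. Their median log2 fold change of -1.19, beside 0.0027 over all 580, is the value of mir-451a itself. The groups overlapped for mir-451a and for mir-15b, so the median shows no shift of the 3 as a class.

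**Figure D2:**
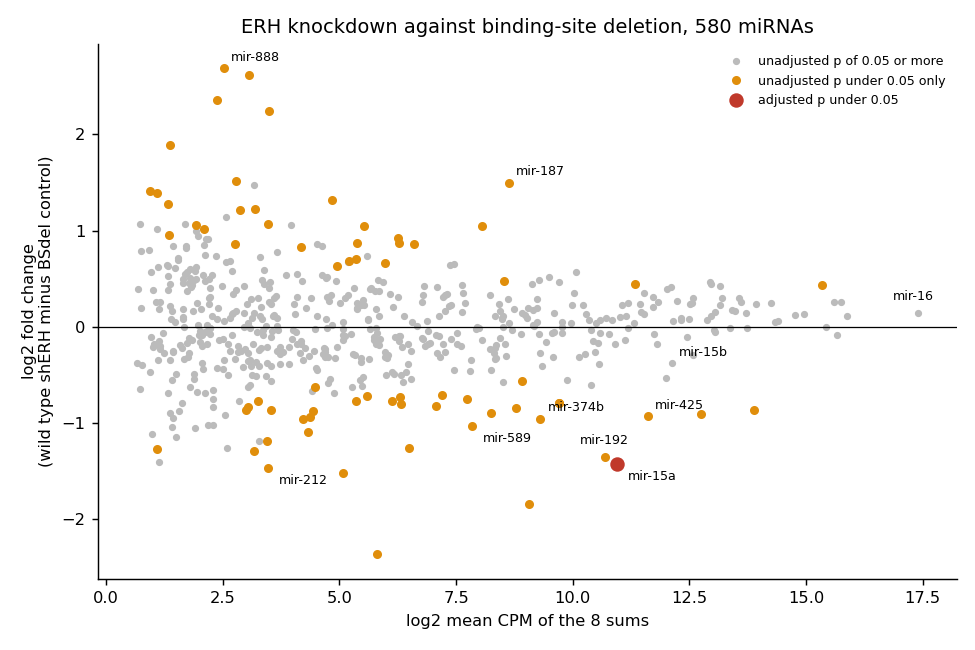
Log2 fold change (wild type shERH minus BSdel control) against log2 mean CPM of the 8 sums for 580 miRNAs. The 69 miRNAs with an unadjusted p under 0.05 lie on both sides of 0, and mir-15a alone passed the adjusted threshold.

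Across all miRNAs the distribution of differences was centred near 0, with a median log2 fold change of 0.0027 and a median absolute value of 0.30. Spike-in scaling moved the median to 0.14 and scaling by total miRNA counts to -0.10. The unadjusted p was under 0.05 for 32 higher (5.52%) and 37 lower miRNAs (6.38%), and the 4 and 4 clones did not overlap for 48 (8.28%), of which 26 were higher (4.48%) and 22 lower (3.79%). Of 194 miRNAs with at least 100 CPM, 147 had a 95% interval within 1 log2 unit on either side of 0, 16 within 0.5, and 6 a log2 fold change beyond 1 in size. Those 6 were mir-15a, mir-589, mir-187, mir-192, mir-12135 and mir-142, a set read off after the values were seen.

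By the same edgeR threshold, knockdown in wild-type clones called 187 of 547 miRNAs (34.2%; 128 higher, 59 lower) and the deletion under control shRNAs 139 of 536 (25.9%; 101 higher, 38 lower). The split moved with the scaling. With spike-in library sizes the knockdown had 171 higher and 12 lower and the deletion 134 higher and 0 lower. Every call of a miRNA as lower with the deletion was thus lost there, among them mir-15b, mir-187 and mir-1306. With total miRNA counts the splits were 181 to 27 and 154 to 4, and after a correction for hairpin GC content they were 71 to 105 and 52 to 60. Without the clone block the knockdown called 94 miRNAs. In the direct comparison the median standard error of a log2 fold change was 0.34, against 0.26 for the knockdown.

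The 5 most abundant miRNAs whose 95% interval lay within 0.5 log2 units of 0 were taken by rule. The first was mir-25. This miRNA, of the mir-106b-25 cluster, stood at 42131, 34635, 44323 and 46259.5 CPM in wild type shERH and at 43178, 45984, 39751 and 42328 CPM in BSdel control, with a log2 fold change of 0.0012 and a 95% interval of -0.34 to 0.35. Its groups overlapped fully. let-7a (-0.014), mir-186 (0.14), mir-128 (0.11) and mir-378a (0.081) likewise had 95% intervals inside -0.5 to 0.5 on the log2 scale. These are bounds on the difference between the states, and none shows that either state left a miRNA at its starting level.

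The 12 miRNAs with the smallest unadjusted p-values after mir-15a were chosen after their values were seen, and none passed in the edgeR test of the sums. Among them, 7 were lower in wild type shERH. mir-212 stood at 6.33, 3.48, 5.48 and 7.12 CPM there (13 to 45 counts) and at 16.4, 16.6, 15.0 and 15.8 CPM in BSdel control (67 to 95 counts). The groups did not overlap, and the deletion clones were very alike. mir-212 differed by a log2 fold change of -1.47 ± 0.31 (SE, 4 against 4 clones; adjusted p = 0.0650, edgeR). DESeq2 called it (adjusted p = 0.000599).

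mir-132, cut from the same primary transcript as mir-212, held 702 ± 103 CPM in wild type shERH and 753 ± 24.4 CPM in BSdel control (SD, n = 4), with a log2 fold change of -0.068. The log2 ratio of mir-212 to mir-132 was -6.86, -7.66, -7.20 and -6.30 in wild type shERH and -5.46, -5.51, -5.65 and -5.63 in BSdel control. The ratio was lower in every knockdown clone, by -1.44 on average (two-sided exact permutation p = 0.0286, adjusted p = 0.0714). The mir-212 level under BSdel shERH was 3.66 ± 0.51 CPM (SD, n = 4), also below BSdel control. MIR212 and MIR132 lie at chromosome 17, 2050271 to 2050380 and 2049908 to 2050008, minus strand (GRCh38).

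mir-192 gave a similar picture with a wider spread. It stood at 583, 989, 751 and 1214 CPM in wild type shERH and at 4540.3, 1659.8, 1781 and 1379.5 CPM in BSdel control. The groups did not overlap, but clone 30 was far above its group. mir-192 differed by -1.35 ± 0.37 (SE, 4 against 4 clones; adjusted p = 0.167, edgeR), and -0.82 without clone 30 (adjusted p = 0.280).

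Its partner mir-194 held 548 ± 69.2 CPM in wild type shERH and 558 ± 268 CPM in BSdel control (SD, n = 4). Here too clone 30, at 959 CPM, was the highest, and in the ratio it stood nearer to its group. The log2 ratio of mir-192 to mir-194 was 0.31, 0.75, 0.27 and 1.24 in wild type shERH and 2.24, 2.04, 1.95 and 1.76 in BSdel control. All knockdown clones lay below all deletion clones, with means -1.35 apart (two-sided exact permutation p = 0.0286, adjusted p = 0.0714). Without clone 30 it was -1.27 (exact permutation test, p = 0.0571). The mir-194 row also holds the copy MIR194-1 beside mir-215 on chromosome 1, and mir-215, with the seed of mir-192, had a log2 fold change of -0.61 (adjusted p = 0.502, edgeR).

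**Figure D3:**
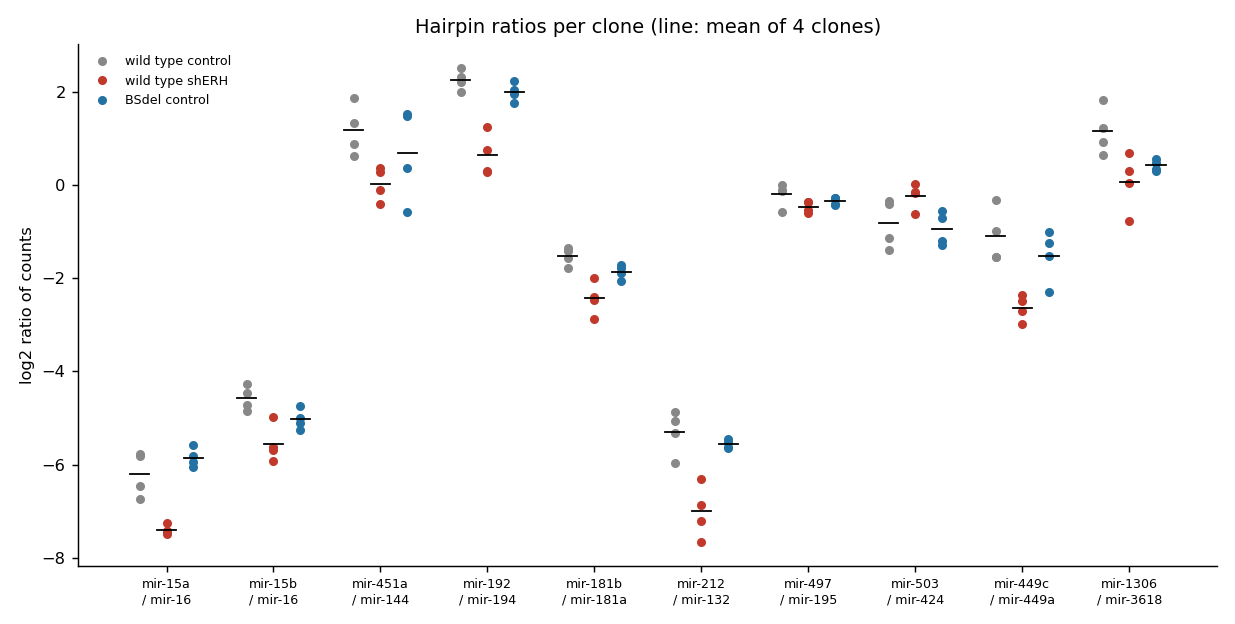
Log2 ratio of counts of 2 hairpins per clone in wild-type control, wild type shERH and BSdel control (4 clones each, line at the mean). For mir-15a to mir-16, mir-192 to mir-194, mir-212 to mir-132 and mir-449c to mir-449a the knockdown clones lay below all BSdel control clones.

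Of the 10 ratios, 4 reached the smallest possible p and 0 passed after adjustment. The last of the 4 was mir-449c to mir-449a, with a difference of -1.12 (exact permutation test, p = 0.0286; adjusted p = 0.0714). Its groups were apart by a narrow margin, with -2.36 in wild type shERH clone 55 and -2.29 in BSdel control clone 30. The ratio of mir-181b to mir-181a, family members that share a seed, differed by -0.57 and that of mir-503 to mir-424 by 0.71 (exact permutation test, p = 0.0571 for both; adjusted p = 0.0952).

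mir-589 and mir-425 were lower in wild type shERH, and neither passed. mir-589, in an intron of FBXL18 on chromosome 7, stood at 158, 127, 133 and 159 CPM in wild type shERH and at 323, 356, 339 and 206 CPM in BSdel control. There was no overlap, and clone 43 came closest. On the log2 scale the difference was -1.03 ± 0.22 (SE, 4 against 4 clones; adjusted p = 0.0650, edgeR).

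mir-425 stood at 2313, 1684, 1977 and 2231 CPM in wild type shERH and at 3745, 3473, 4159 and 4474 CPM in BSdel control, again without overlap. Its log2 fold change was -0.93 ± 0.20 (SE, 4 against 4 clones; adjusted p = 0.0650, edgeR). It was called in 7 of 19 alternatives, the most of any miRNA outside mir-15a among those described here. mir-191, which shares the DALRD3 intron cluster with mir-425, had 0.17 (adjusted p = 0.821).

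For mir-374b, in the non-coding gene FTX on chromosome X, levels were 426, 516, 234 and 469.8 CPM in wild type shERH and 686, 830.5, 904 and 835 CPM in BSdel control. The groups did not overlap, and clone 57 was the lowest. Under control shRNAs clone 57 was already the lowest wild-type clone, with 1502 counts of mir-374b against 4130 to 5358 in clones 52, 55 and 67. The part of this starting level in the difference was not tested beyond leaving the clone out. The log2 fold change was -0.95 (adjusted p = 0.167, edgeR). MIR374C overlaps it on the opposite strand, and whether counting used strand is not given in the sources used here. mir-502, in a CLCN5 cluster whose members mir-500a and mir-501 are near-identical to it, had -1.26 (adjusted p = 0.208). Its value is therefore uncertain.

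These 6 miRNAs had fallen in wild-type clones on ERH knockdown and had no call for the deletion. On the log2 scale the knockdown and the deletion gave -1.83 and -0.39 for mir-212, -2.04 and -0.68 for mir-192, -1.53 and -0.50 for mir-589, -1.46 and -0.59 for mir-425, -1.30 and -0.39 for mir-374b, and -1.64 and -0.29 for mir-502. Adjusted p-values were at most 0.000688 for the knockdown and at least 0.0587 for the deletion (edgeR). A call on 1 side only does not show a difference, and the direct test of each, given above, did not pass.

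mir-4803, from an intron of MAP1B, was the one lower miRNA of the 7 that lay above the starting level in both states. It held 1.89 ± 1.36 CPM in wild-type control, 4.98 ± 0.83 CPM in wild type shERH and 12.5 ± 1.34 CPM in BSdel control (SD, n = 4). Its log2 fold change between the states was -1.29 (adjusted p = 0.105, edgeR). mir-4803 held 15, 2, 5 and 5 counts in wild-type control, 21 to 32 in wild type shERH and 53 to 79 in BSdel control. Against wild-type control it therefore had enough counts for testing only through the group where it was high. The log2 fold changes there, 1.54 for the knockdown and 2.69 for the deletion, are descriptive and no support for a rise. The miR-548 copies, derived from transposons, had the same order of medians. Of 45 mir-548 rows tested, 39 had fitted values below 0, 7 at an unadjusted p under 0.05 (beside 6.38% of all miRNAs), and the median was -0.26. It was -0.076 with spike-in scaling and -0.35 with total counts. Their median was 1.01 for the knockdown and 1.23 for the deletion. Near-identical copies share reads, so single mir-548 rows are uncertain.

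Of the 12 miRNAs, 5 were higher in wild type shERH. mir-187 stood at 327, 909.8, 559.5 and 414 CPM there and at 311, 165, 153 and 179 CPM in BSdel control. The groups did not overlap by a narrow margin between clones 52 and 30. The log2 fold change was 1.498 ± 0.35 (SE, 4 against 4 clones; adjusted p = 0.105, edgeR). Wild-type control clones held 640.0 ± 352 CPM (SD, n = 4), and the deletion called mir-187 lower (-1.66, adjusted p = 0.00922), while the knockdown value was -0.10 (adjusted p = 0.638).

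mir-888, mir-892a and mir-891a come from 1 region of chromosome X and are scarce. mir-891a stood at 12.4, 9.64, 34.7 and 13.7 CPM in wild type shERH and at 1.20, 1.75, 4.25 and 7.64 CPM in BSdel control, with clone 57 far above the rest. Clone 57 was already the highest wild-type clone under control shRNAs. It held 93 counts of mir-891a there, against 10, 23 and 26 in clones 52, 55 and 67. For mir-888 it held 28 counts against 5 to 14, and for mir-892a 25 against 5 to 14. The part of this clone in the differences was not tested beyond leaving it out. The log2 fold changes were 2.69 for mir-888, 2.36 for mir-892a and 2.24 for mir-891a (adjusted p from 0.130 to 0.167, edgeR). Without clone 57 they were 1.75, 1.497 and 1.64. In BSdel control these rows held between 4 and 46 counts per sum. There mir-888 held 4 to 11, mir-892a 8 to 10 and mir-891a 6 to 46. BSdel control alone brought none of these rows past the count filter, so all were tested only through wild type shERH. Their fold changes are therefore descriptive and are no support for a difference.

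mir-320d stood at 60.2, 62.6, 50.9 and 65.3 CPM in wild type shERH and at 25.2, 51.3, 26.4 and 17.4 CPM in BSdel control, with clone 34 close to the knockdown clones. The log2 fold change was 1.05 (adjusted p = 0.218, edgeR), and mir-320c and mir-320b had 0.92 and 0.86. As the printed sequences show, the 3 copies differ near the 3′ end, so their reads may be split between rows. Of 6 mir-320 rows, 3 were higher at an unadjusted p under 0.05, beside 5.52% of all miRNAs.

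**Figure D4:**
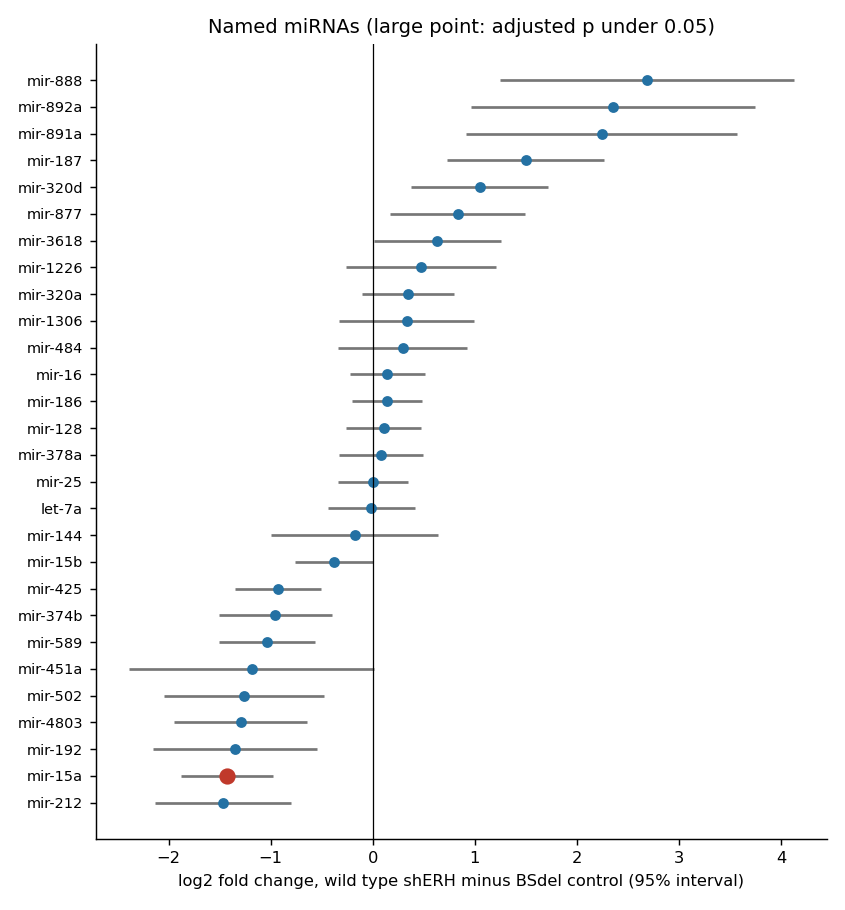
Log2 fold change (wild type shERH minus BSdel control) with its 95% interval for 28 miRNAs described by rule or chosen after their values were seen. The intervals of mir-25, let-7a, mir-186, mir-128 and mir-378a lie within 0.5 of 0, and mir-15a has the large point.

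Hairpins that bypass the Microprocessor were read as a group in which ERH and DGCR8 have no known cutting step. The 4 tested of 12 listed were mir-320a and mir-484, which have capped precursors, and the mirtrons mir-877 and mir-1226, which are released by splicing. The log2 fold changes were 0.35, 0.29, 0.83 and 0.47, with a median of 0.41 beside 0.0027 over all miRNAs. None passed (adjusted p from 0.255 to 0.746, edgeR), and mir-877, at 22.1 ± 5.25 CPM against 12.9 ± 3.95 CPM (SD, n = 4), had an unadjusted p of 0.0177. Under spike-in and total scaling the median was 0.55 and 0.30.

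The DGCR8 transcript itself carries hairpins, mir-1306 and mir-3618, which the Microprocessor cuts. mir-1306 stood at 41.4, 30.2, 26.2 and 56.4 CPM in wild type shERH and at 24.0, 42.2, 32.4 and 27.4 CPM in BSdel control, with overlapping groups. Its log2 fold change was 0.33 with a 95% interval of -0.33 to 0.99 (adjusted p = 0.716, edgeR). From 78.9, 66.1, 91.6 and 133 CPM in wild-type control, it fell by 1.21 on knockdown (adjusted p = 0.000823) and by 1.53 with the deletion (adjusted p = 0.00796). mir-3618 had 0.63 in the direct comparison (adjusted p = 0.406), and the log2 ratio of mir-1306 to mir-3618 differed by -0.36 (exact permutation test, p = 0.314; adjusted p = 0.314). The deletion lies in the same gene as these hairpins, so its effect on the transcript and on its cutting cannot be told apart.

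The lists of clusters and families had a median near 0. Of 126 listed miRNAs 114 were tested, 1 passed (mir-15a), and the median was 0.046. At an unadjusted p under 0.05 (edgeR), 4 of the 114 were higher and 11 lower, beside 32 (5.52%) and 37 (6.38%) of all 580. In the mir-17-92 cluster, an oncogenic polycistron, 4 of 6 members had fitted values above 0, the median was 0.13 and 0 passed. Its member mir-19a, the lowest at -0.87, was lower at an unadjusted p under 0.05 (edgeR). It held 10104 CPM in wild type shERH and 18774 CPM in BSdel control on average. In the let-7 family of differentiation-linked miRNAs 7 of 9 were below 0, the median was -0.22, the lowest value -0.77 and 0 passed. At an unadjusted p under 0.05 (edgeR) 1 of them was lower. FTX hairpins had a median of -0.53 over 5, the mir-181 family -0.43 over 4, and the mir-183-96-182 cluster 0.39 over 3. The 5 HOX-embedded hairpins had a median of 0.13.

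**Figure D5:**
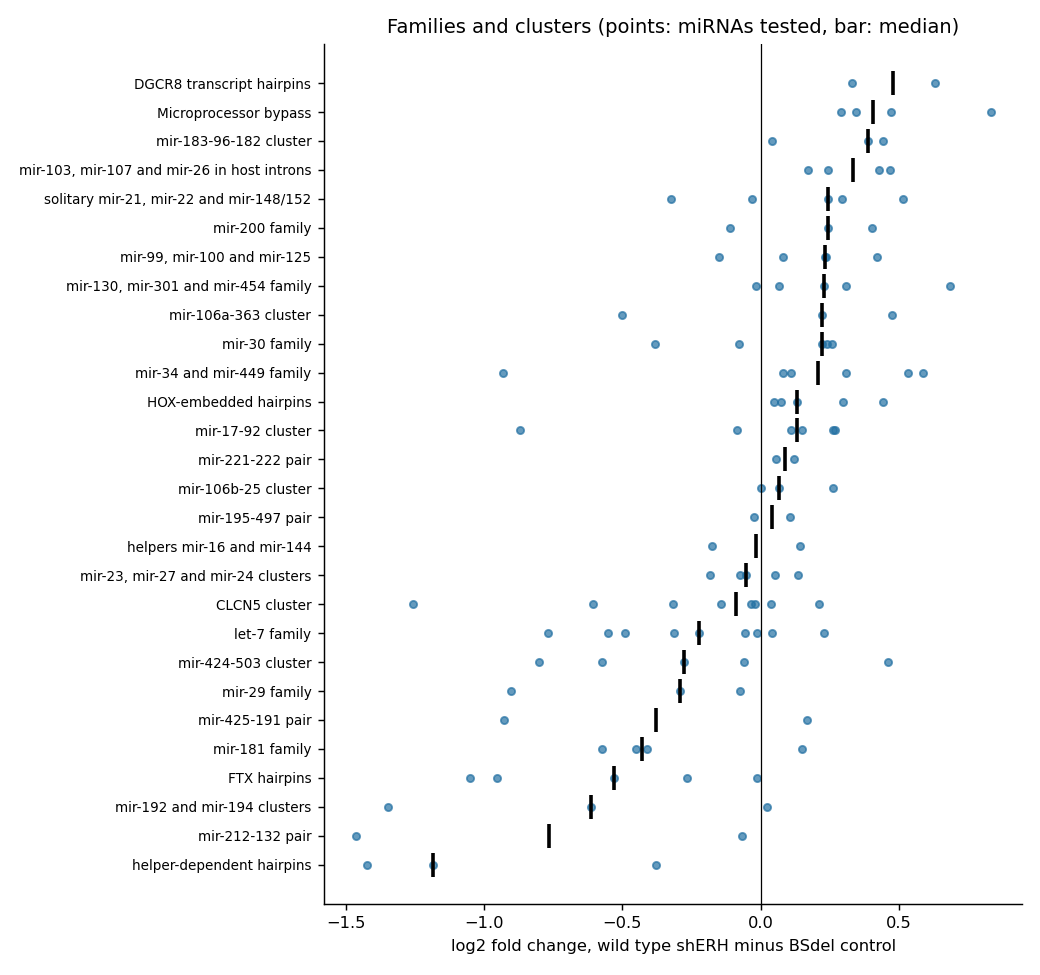
Log2 fold change (wild type shERH minus BSdel control) of each listed miRNA tested, by family or cluster, with a bar at the median. Most medians lie within 0.5 of 0, and the helper-dependent hairpins have the lowest, at -1.19. That median is the value of mir-451a, whose groups overlapped.

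Of the 580 miRNAs, 108 (18.6%) lay within 10 kb of another tested hairpin on the same strand. These had a median of -0.043 on the log2 scale, and the 460 with no such neighbour 0.042. Among the 37 lower at an unadjusted p under 0.05, 13 were clustered (35.1%), and among the 32 higher 6 were (18.8%). The median GC content of the hairpins was 44.2% for the lower, 54.2% for the higher and 47.9% for all tested, and the median level was 78.5, 14.7 and 27.0 CPM. The parts of GC content and level in this difference were not tested beyond the corrected fit, in which mir-15a, mir-212, mir-425 and mir-589 passed.

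Total miRNA content relative to the spike-in RNAs was not distinguishable. The log2 ratio of miRNA to spike-in counts was 7.29 ± 0.45 in wild type shERH and 7.03 ± 0.53 in BSdel control (SD, n = 4), 0.26 apart (two-sided exact permutation p = 0.457). Of the 4 listed blood-cell markers, mir-142, mir-150 and mir-223 were highest in clone 30 among the 8 sums, and mir-144 was highest in clone 34. mir-142 stood at 2134, 746, 319.7 and 146 CPM in BSdel control and at 290.3, 375, 131 and 97.5 CPM in wild type shERH, and mir-223 reached 255 CPM in clone 30 against 8.14 to 30.8 CPM in wild type shERH. Their part in the values of mir-192 and mir-187 was not tested. Without clone 30 mir-15a was still called (-1.36, adjusted p = 0.0463, edgeR).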

How the data were processed

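The deposited table gave whole-number counts per library for 1513 miRNA precursor rows and 4 spike-in RNAs, with no normalization; per the file headers they are total read counts. SAMtools is named in the submitters' processing notes. Aligner, annotation, build and any use of molecular identifiers are not given in the sources used here, so amplification copies may be among the counts. Rows join both arms of a hairpin and all its loci. 0 columns were left without a sample. Members and lists were chosen with earlier results of these data known.

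Counts were summed per clone and fitted with edgeR 4.0.16 in R 4.3.3 (filterByExpr, minimum count 10, TMM, glmQLFTest, Benjamini-Hochberg over all rows tested, threshold 0.05). The knockdown in wild-type clones had the clone as a block. The pairing comes from the labels, and r of a clone's deviations was 0.35 to 0.63. Library pairs within groups differed by a chi-square of at least 118 per degree of freedom. Hairpin positions came from GENCODE release 29 (GRCh38), which matched 1454 rows. Fits were tested on simulated data. Alternatives were DESeq2 1.42.0, other scalings and filters, a GC correction, single shRNAs, unsummed libraries (limma 3.58.1) and leaving out each clone.

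Named miRNAs were up to 8 with the largest change and up to 5 of the highest level per direction among those called with at least 10 CPM and no overlap, up to 5 abundant ones with intervals within 0.5, all listed helper pairs, DGCR8 hairpins and Microprocessor bypass members, and 12 chosen after their values were seen.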

Additional observations from a re-analysis of the deposited data

Results flagged for a closer look

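Within groups of 4 clones, 4 of 78 sets of levels held 1 clone far from the other 3, a rate that chance gives in about 1 in 20 sets. In BSdel control, clone 30 was the high one for mir-16 (200235 CPM against 145124 to 153486 in the others), for mir-187 (310.8 CPM against 153 to 179) and for mir-192 (4540.3 CPM against 1379.5 to 1781). In wild type shERH, clone 57 was the high one for mir-891a (34.7 CPM against 9.64 to 13.7).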

How the results depend on the processing

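mir-15a kept its sign in all 19 alternatives (-1.65 to -1.29) and was called in 16. It was lost with spike-in scaling (-1.29), with the second shRNAs only (-1.32) and without clone 55, and leaving out 1 clone gave -1.58 to -1.32. The cause was not tested. The count of miRNAs called in the direct comparison was 1, against 16 with DESeq2, 0 with spike-in scaling (40 at an unadjusted p under 0.05 in edgeR), 2 with total miRNA scaling, 15 without a filter, 2 with a mean of at least 100 counts, 4 after GC correction, 3 in 1 fit over 16 sums, 3 with the first and 0 with the second shRNAs (41 unadjusted), 13 with each library on its own, 2 with both shRNAs weighted alike (chosen after seeing the data), and 0 (without clone 55, 78 unadjusted) to 2 (without clone 67, which added mir-29c) when a clone was left out. mir-15a was in every count above 0. Listed miRNAs passing were 1, against 0 with spike-in and 2 with total scaling. The knockdown in wild type called 187, against 124 with a mean of at least 100 counts, 32 with the second shRNAs, and 110 (without clone 57) to 194 when a clone was left out. No paired analysis was possible because the compared groups hold different clones; in the paired knockdown comparison, the fit with no replicate block called 94. The deletion called 139, against 76 with a mean of at least 100 counts, 35 with the second shRNAs, and 83 (without clone 34) to 129 when a clone was left out. Ratios at an unadjusted p under 0.05 numbered 4, against 2 with the second shRNAs and 2 to 5 when a clone was left out.

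Values near 0 changed sign. mir-25 (0.0012) became -0.028 with DESeq2, -0.11 with total scaling, -0.041 without a filter, -0.047 with at least 100 counts, -0.16 after GC correction, -0.033 in 1 fit over 16 sums, -0.085 with the first shRNAs, -0.015 per library, -0.016 with shRNAs weighted alike and -0.068 to 0.077 when a clone was left out. let-7a became 0.10 with spike-in scaling, 0.037 after GC correction and -0.17 to 0.084 when a clone was left out. mir-128 became -0.0037 with total scaling, and with the first shRNAs mir-186 became -0.076 and mir-144 0.041. mir-378a became -0.030 with total scaling and -0.10 with the second shRNAs. Leaving out a clone gave -0.38 to 0.022 for mir-144 and -0.060 to 0.19 for mir-378a. With the second shRNAs mir-3618 became -0.040 and the ratios of mir-497 to mir-195 and mir-1306 to mir-3618 became 0.059 and 0.15. With 4 clones a group, 250 of 580 intervals lay within 1 log2 unit of 0. Whether depth or the spread among clones sets the width of the others was not tested.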
